A study of Mus musculus with 5 samples.

Results

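The globin-rich barcodes of 5 single-cell RNA sequencing libraries from mouse small cell lung cancer (SCLC) were examined, a class proposed under the name erythroid cells. A barcode stands for the contents of 1 microwell, usually 1 cell, and a UMI (unique molecular identifier) counts 1 captured RNA molecule. A barcode was taken as a member when it had more than 150 detected genes and when the adult globin genes Hba-a1, Hba-a2, Hbb-bs and Hbb-bt made up at least 10% of its UMIs. The rule found 96 members among 86693 barcodes with more than 150 genes, a share of 0.111%. Since the members were chosen by their globin counts, globin levels are given as a description only, and all other levels are UMIs per 1000000 non-globin UMIs (CPM) summed over the members of a library.

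All 5 libraries came from lung tumors of Rb1 fl/fl x Trp53 fl/fl mice, in which inhaled adenoviral Cre deletes both tumor suppressor genes in whichever lung cells it enters, and treatment began once a lesion could be measured, after about 6 months. There was 1 library per treatment: vehicle (PBS), anti-PD-1 antibody, the oral ERBB2 inhibitor mubritinib (ERBB2i), the combination of both, and the combination in a tumor labeled as in response. Doses were given every 3 days, with both agents at 10 mg/kg in the combination. With 1 library per group, treatment cannot be told apart from the animal, the dissection or the library, so no test of treatment was possible, and every interval below is a 95% interval for counting error only. The labels give the sampled cells as epithelial and of neuroendocrine origin, which does not describe the barcodes reported here.

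Red blood cells arise from erythroid progenitors that switch on globin and heme synthesis under the transcription factors GATA1 and KLF1, divide a few times, condense and expel the nucleus, and then mature as reticulocytes, which carry messenger RNA but no longer transcribe it. During this last stage mitochondria, ribosomes and surface receptors are removed by autophagy and by the ubiquitin system, so the remaining RNA is dominated by globin. Alas2 encodes the erythroid form of the first enzyme of heme synthesis, and is made almost exclusively in erythroid cells. Blood that enters a tumor biopsy brings red cells with it, and these are usually removed from single-cell data as debris.

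The 250 bases before the annotated start of Alas2, the erythroid gene other than globin with the highest level in members of at least 80% globin, and of 3 of the globin genes that chose them are shown because GATA1 and KLF1 bind GATAA and CACCC letters. Each sequence is RefSeq, build GRCm38.p6, the build of mm10, written 5′ to 3′ on the strand of its gene, with the letters GATAA and CACCC, or TTATC and GGGTG where they lie on the other strand, in capitals. The windows are chrX:150547167-150547416 on the plus strand for Alas2, chr11:32283422-32283671 on the plus strand for Hba-a1, chr7:103827929-103828178 on the minus strand for Hbb-bs and chr7:103813924-103814173 on the minus strand for Hbb-bt.
Alas2: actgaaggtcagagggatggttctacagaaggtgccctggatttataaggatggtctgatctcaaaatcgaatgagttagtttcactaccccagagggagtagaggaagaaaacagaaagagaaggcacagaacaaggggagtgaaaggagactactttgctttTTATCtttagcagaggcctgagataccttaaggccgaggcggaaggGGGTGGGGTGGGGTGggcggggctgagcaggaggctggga
Hba-a1: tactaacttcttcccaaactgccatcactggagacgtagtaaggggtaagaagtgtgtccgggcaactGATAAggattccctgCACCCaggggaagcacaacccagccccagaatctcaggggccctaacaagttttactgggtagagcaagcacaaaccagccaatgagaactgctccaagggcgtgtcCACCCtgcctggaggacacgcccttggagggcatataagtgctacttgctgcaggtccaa
Hbb-bs: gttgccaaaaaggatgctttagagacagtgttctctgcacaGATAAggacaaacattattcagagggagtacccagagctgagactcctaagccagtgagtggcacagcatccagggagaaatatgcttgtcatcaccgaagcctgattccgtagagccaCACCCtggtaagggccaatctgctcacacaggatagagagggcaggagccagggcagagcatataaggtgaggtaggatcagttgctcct
Hbb-bt: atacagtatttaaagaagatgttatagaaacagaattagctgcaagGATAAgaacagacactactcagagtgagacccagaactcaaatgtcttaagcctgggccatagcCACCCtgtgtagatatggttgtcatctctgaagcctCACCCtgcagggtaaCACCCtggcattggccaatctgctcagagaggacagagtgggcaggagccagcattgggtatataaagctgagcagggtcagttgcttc
GATAA occurred 1 time in each of the 4 windows. The letters CACCC occurred 3 times in the Alas2 window, 2 times in that of Hba-a1, 1 time in that of Hbb-bs and 3 times in that of Hbb-bt. Among 32851 windows of the same kind, 22.6% held GATAA, 52.0% held CACCC and 10.1% held both. Of the windows of listed heme synthesis genes, 3 of 12 (25%) held GATAA and 8 of 12 (66.7%) held CACCC. For listed red cell membrane genes these were 6 of 17 (35.3%) and 13 of 17 (76.5%), so most listed genes lack GATAA there. The windows of Bpgm and Ube2l6, 2 other abundant genes of the members, held no GATAA, and that of Ube2l6 held 2 CACCC. These are matches of letters and not binding sites. The Hba-a1 and Hba-a2 windows were 97.6% identical over their alignment, against 70.9% for Hbb-bs and Hbb-bt.

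The library labeled vehicle held 60 members among 9706 barcodes, or 0.618% (exact binomial interval 0.472 to 0.795%). The combination in response held 23 of 10115, or 0.227% (0.144 to 0.341%). The anti-PD-1 library held 5 of 13369 (0.0374%), the combination 7 of 27209 (0.0257%) and ERBB2i 1 of 26294 (0.0038%). Vehicle therefore supplied 62.5% of all members and the combination in response 24.0%, and the other 3 libraries together held 13. The deposited barcodes were 24 bases long in the ERBB2i and combination libraries and 27 bases long in the remaining 3, and whether this difference in barcode format bears on the shares was not tested. Library totals ran from 21624506 to 88497833 UMIs and did not follow the number of members. No member barcode was shared between libraries. A doublet caller (Scrublet) marked 0 of the 96 members. Its automatic threshold marked 0% of barcodes in every library but anti-PD-1, so a fixed score of 0.25 was used in those. Doublets simulated from so few globin-rich barcodes would rarely hold one, so this result cannot show that the members are single cells.

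**Figure D1:**
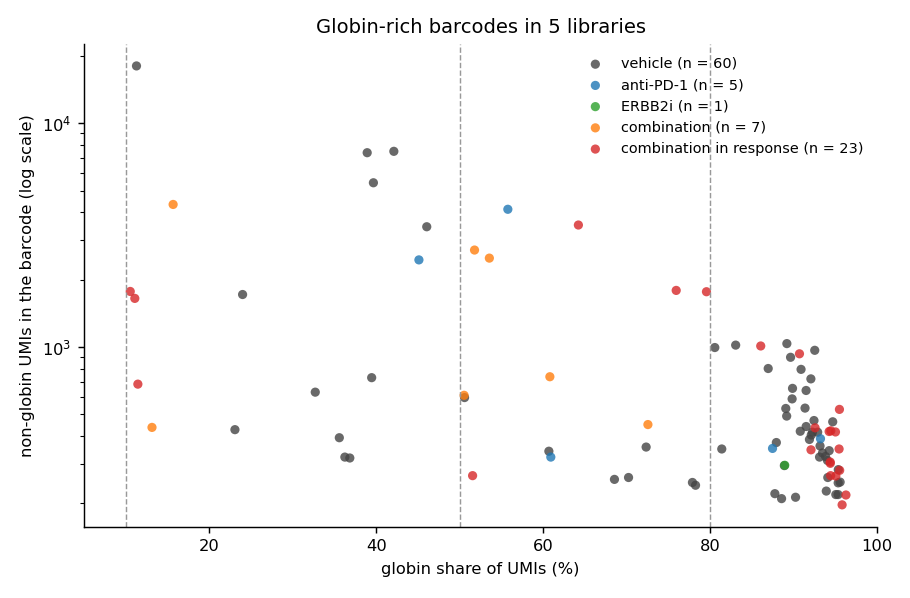
Non-globin UMIs per barcode (log axis, vertical) against the globin share of UMIs (percent, horizontal) for all 96 members, colored by library, with dashed lines at 10, 50 and 80% globin. Most vehicle and combination in response members lie above 80% globin with few non-globin UMIs, and the 7 combination members all lie below 80%.

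Members in the vehicle library had a median of 5129 UMIs, close to the 5290 of the other barcodes of that library, but a median of 254.5 detected genes against 2586. For the combination in response the medians were 5882 UMIs and 243 genes in members, against 1224 UMIs and 772 genes in the others. The globin share had a median of 94.3% in the combination in response, 89.4% in vehicle, 60.9% under anti-PD-1 and 51.8% in the combination, and was 89.0% in the single ERBB2i member. Once globin was set aside, a median of 410 UMIs was left per vehicle member (210 to 18016) and 419 per combination in response member (197 to 3506), which is the depth behind every level below. Mitochondrial transcripts made up a median of 0.982% of the non-globin UMIs in vehicle members and 1.78% in combination in response members. As a share of all UMIs, the measure used in quality filters, the medians were 0.0962% and 0.102%, against 2.27% and 2.10% in the other barcodes of the same libraries.

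The members were not evenly spread over the globin range. By a division chosen after the values were seen, 60 had at least 80% globin (41 in vehicle, 16 in combination in response, 2 in anti-PD-1, 1 in ERBB2i), 18 had 50 to 80% and 18 had 10 to 50%. Closest to the cutoff, the 3 lowest members of the combination in response had 10.5, 11.1 and 11.4% globin and no Alas2 UMI, the lowest vehicle member had 11.3% and 1 Alas2 UMI, and the 2 lowest combination members had 13.1 and 15.7% with 0 and 3. Just outside the cutoff, barcodes with 9.48% (anti-PD-1), 8.16, 7.26, 7.06 and 6.04% (vehicle) carried no Alas2, and in the combination in response those with 7.96, 6.27 and 5.20% carried 0, 1 and 1. The lowest vehicle member had 20303 UMIs, 5288 genes and 225 UMIs of the cell cycle list, and alone held 26.5% of all non-globin UMIs of the vehicle members. The 5 deepest members held 61.4% in vehicle and 57.8% in the combination in response, so sums over all members weigh a few deep barcodes of low globin share most. For this reason the levels below are given mainly for the members with at least 80% globin, which sum to 19442 non-globin UMIs in vehicle and 6693 in the combination in response.

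Of the filters that the study describes, the limit on mitochondrial share left 59 of 60 vehicle and 21 of 23 combination in response members. The limit on detected genes left 11 of 60 in vehicle. The limit on the share of UMIs in the 20 most abundant genes left 0 in vehicle and 2 of 23 in the combination in response. That share had a median of 93.3% in vehicle members and 9.01% in the other vehicle barcodes. All filters together left 2 members of the 96, both in the combination in response.

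Alas2 (chrX:150547417-150570622) was detected in 80 of the 96 members, or 83.3% (74.4 to 90.2%), with 1044 UMIs in all. It was found in 58 of the 60 members with at least 80% globin and in 22 of the 36 below. Over all members its level was 9660 CPM in vehicle (657 UMIs, in 49 of 60 members) and 18434 CPM in the combination in response (334 UMIs, in 19 of 23). The other barcodes of these libraries had 0.502 and 0.886 CPM, and those of the remaining libraries had 0.0723 to 0.186 CPM. Fewer UMIs were found elsewhere, with 32 over all 5 anti-PD-1 members (4192 CPM), 16 over 6 of the 7 combination members (1360 CPM) and 5 in the ERBB2i member. The members' Alas2 level is not part of the rule, but Alas2 RNA accompanies globin RNA in red cells, so this is a check of the label and not an independent finding.

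Within the members of at least 80% globin, Alas2 ran from 0 to 43 UMIs with a median of 12 in the 41 of vehicle, and from 9 to 32 with a median of 18.5 in the 16 of the combination in response. The summed levels were 31478 CPM (29033 to 34074) and 44674 CPM (39753 to 50035). Below this the level was much lower, at 1740 CPM in vehicle and 4778 CPM in the combination in response for 50 to 80% globin, and 886 and 0 CPM for 10 to 50%. Of the vehicle members with fewer than 1500 UMIs, 5 of 13 carried Alas2 (1173 CPM), against 44 of 47 deeper ones (10351 CPM). When each barcode was thinned to 140 non-globin UMIs, Alas2 was present in 66.7% of vehicle members (53.3 to 78.3%) and 78.3% of combination in response members (56.3 to 92.5%), against 0.0104% and 0% of the other barcodes. Unthinned, the shares were 81.7 and 82.6% of members and 0.311 and 0.168% of the others. No Alas2 UMI was found in 16 members, 2 of at least 80% globin, both in vehicle, and 14 under 80%, so Alas2 does not bear out the label for these. Markers of other cells also went against the label in some members with Alas2. The deepest vehicle member had 1 Alas2 UMI beside 143 neuroendocrine and 225 cell cycle UMIs, and a combination member had 3 beside 244 macrophage UMIs. All 96 are therefore called globin-rich barcodes.

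**Figure D2:**
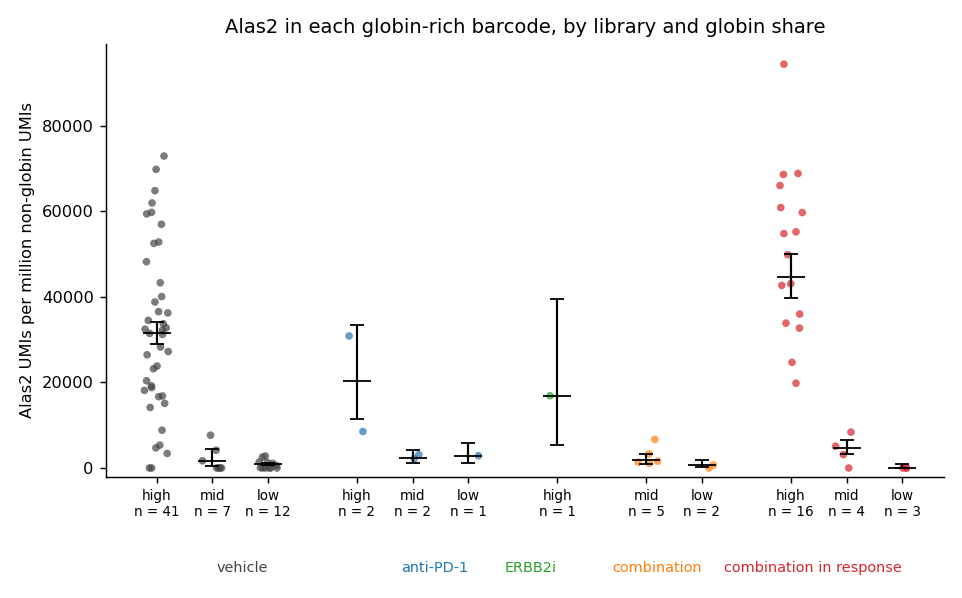
Alas2 level of each member (UMIs per 1000000 non-globin UMIs, vertical) by library and globin share, where high is at least 80%, mid 50 to 80% and low 10 to 50% globin. Points are members and bars give the summed level with its exact Poisson 95% interval, which reaches 31478 in the high members of vehicle and 44674 in those of the combination in response.

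Among the genes of heme synthesis and mitochondrial heme transport, Alas2 took most of the signal. In the members of at least 80% globin, the list of 16 genes summed to 41457 CPM in vehicle and 56328 CPM in the combination in response, against 1141 and 777 CPM in the other barcodes. Fech, which inserts iron into protoporphyrin in the last step, had 89 UMIs in 29 of 41 vehicle members (4578 CPM) and 36 UMIs in 13 of 16 combination in response members (5379 CPM). Slc25a39, a mitochondrial carrier, had 76 and 31 UMIs (3909 and 4632 CPM), and the mitochondrial iron importer Slc25a37 had 16 and 5 UMIs. The enzymes of the middle steps were sparse, so that 4 of the 16 genes in vehicle and 9 of 16 in the combination in response had no UMI in this band.

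Among the membrane and skeleton genes described here, Epb41, the linker protein 4.1, had most UMIs. It had 70 UMIs (3600 CPM) in vehicle and 46 UMIs (6873 CPM) in the combination in response. The anion exchanger Slc4a1 had 5 and 1 UMIs. Sptb, Ank1 and Gypc had no UMI in any vehicle member, where 3 counts would be 44.1 CPM. The 23 genes of the list summed to 9053 and 9413 CPM, against 569 and 1131 CPM in the other barcodes.

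Among red cell enzymes and antioxidant proteins, Bpgm, which makes the 2,3-bisphosphoglycerate that lowers the oxygen affinity of hemoglobin, had 198 UMIs (10184 CPM) in 32 of 41 vehicle members and 81 UMIs (12102 CPM) in 16 of 16 combination in response members. Gpx1, a glutathione peroxidase, had 507 UMIs (26078 CPM) in 29 of 41 and 72 UMIs (10757 CPM) in 7 of 16. Prdx2, a peroxiredoxin abundant in red cells, had 68 UMIs (3498 CPM) and 11 UMIs (1644 CPM). Car2, carbonic anhydrase 2, had 98 UMIs (5041 CPM) in 13 of 41 and 7 UMIs (1046 CPM) in 4 of 16. The carbonic anhydrase gene Car1 and the pyruvate kinase gene Pklr were at 0 in the vehicle members. Summed over 16 genes, the list stood at 48400 CPM in vehicle and 27491 CPM in the combination in response, with 2057 and 1381 CPM in the other barcodes. Over all members it stood at 16512 and 14239 CPM. Of the genes of hemoglobin assembly and iron handling, only Ftl1 and Fth1, the ferritin chains, reached 10 UMIs in these bands, with 252 and 92 UMIs in vehicle and 106 and 19 in the combination in response.

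Genes of organelle clearance and terminal maturation had the largest sum of the erythroid lists, and theirs is also the longest list. Bpgm belongs to this list and to that of the red cell enzymes, so its UMIs are counted in both sums. Ubb, also in this list, had 5400 CPM in the other barcodes of vehicle and 3187 CPM in those of the combination in response. Their 25 genes summed to 80496 CPM in the vehicle members of at least 80% globin and 79486 CPM in those of the combination in response, against 7446 and 5128 CPM in the other barcodes. Ube2l6, an enzyme that conjugates ISG15 and ubiquitin, had 224 UMIs (11521 CPM) in 35 of 41 and 95 UMIs (14194 CPM) in 16 of 16. Mkrn1, a ubiquitin ligase, had 218 UMIs (11213 CPM) and 63 UMIs (9413 CPM). Bnip3l, the mitophagy receptor of reticulocytes, had 66 and 32 UMIs. The polyubiquitin gene Ubb had 311 and 56 UMIs, the exonuclease gene Isg20 had 95 and 31, and the poly(A) polymerase gene Tent5c had 57 and 35.

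Few UMIs came from the erythroid transcription factor genes. The 15 genes had 14 UMIs in the vehicle members of at least 80% globin (720 CPM, with 280 CPM in the other barcodes) and 7 in those of the combination in response (1046 CPM, with 522 CPM in the others). The 10 genes of erythroid progenitors had 76 UMIs (3909 CPM, against 1973 CPM) and 26 UMIs (3885 CPM, against 1099 CPM), of which Cd24a, a surface protein gene that other cell types also express, held 66 and 21. Gata1, Klf1, Tal1, Nfe2 and Gfi1b were at 0 in all 60 vehicle members, and so were the erythropoietin receptor gene Epor and the progenitor factor Gata2. Taking 3 counts as the limit for a count of 0, levels under 44.1 CPM over all vehicle members and under 154 CPM in those of at least 80% globin were not detectable. The transferrin receptor gene Tfrc had 4 UMIs and Kit had 1 in the vehicle members. The embryonic globin genes Hbb-y, Hbb-bh1, Hbb-bh2 and Hba-x had no UMI in members of vehicle or combination in response. The 14 cell cycle genes summed to 4629 and 2689 CPM at 80% globin or more, below the 6622 and 6524 CPM of the other barcodes. Under anti-PD-1 the order was the opposite, with 13 UMIs in the 2 members of at least 80% globin (17544 CPM, interval 9341 to 30001) against 9174 CPM in the others.

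**Figure D3:**
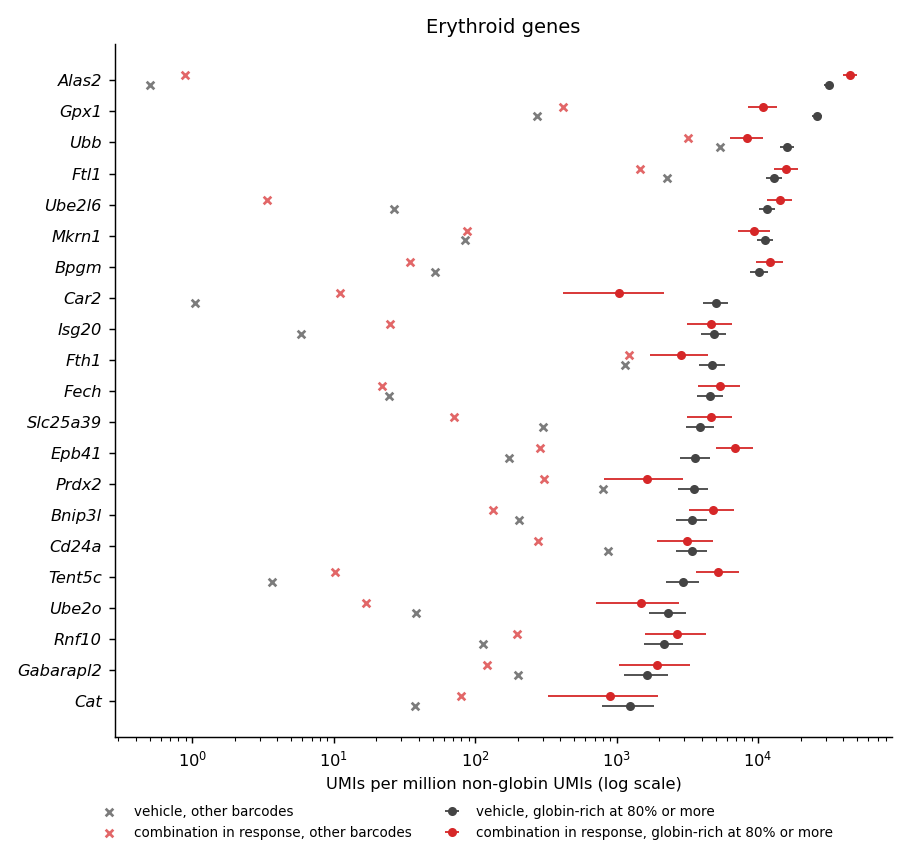
Levels of erythroid genes (UMIs per 1000000 non-globin UMIs, log axis) in members of at least 80% globin (dots, with exact Poisson 95% intervals) and in the other barcodes (crosses) of the vehicle and combination in response libraries. Alas2 reaches 31478 and 44674 in members and stays under 1 in the others.

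Across the table, 1779 genes had enough UMIs for a ratio of members to other barcodes in vehicle, and 134 were at least 2-fold higher in members, 7.53% of those tested, while 110 or 6.18% were at least 2-fold lower. In the combination in response 79 of 352 genes (22.4%) were at least 2-fold higher and 56 (15.9%) lower. The rule chose the members in this same contrast and globin was left out of the scale, so these shares are given as background only. A gene expected at under 10 UMIs in members could enter only by reaching 10 there. Every gene named below as highest in either library entered in this way, including Alas2, Car2, Isg20, Tent5c, Ube2l6 and Bpgm. This entry rule favors high ratios in the list counts and medians below. The lists were also chosen with earlier results known, so their counts and medians below are a description only. In vehicle 4 of 6 heme genes, 2 of 3 membrane genes, 7 of 10 enzyme genes and 12 of 15 clearance genes were at least 2-fold higher, with median log2 ratios of 3.12, 2.96, 1.72 and 2.87, against -0.11 over all genes tested. Of the clearance genes, 1 was at least 2-fold lower. Bpgm was counted among both the enzyme and the clearance genes. Hemoglobin assembly and iron genes had 1 of 2 higher (median 0.90), the transcription factors 0 of 1 (0.48), and the progenitor genes 1 higher (Cd24a) and 1 lower (Apoe) of 2 (-0.20). Apoe was named after its values were seen. Counts for the combination in response were 3 of 3, 1 of 1, 3 of 3 and 11 of 12, with medians of 6.79, 3.63, 3.90 and 5.57, against -0.0035 over all genes tested, while hemoglobin assembly and iron had 1 of 2 higher (1.66) and the progenitor genes 1 of 2 (1.21). The cell cycle list had 0 of 13 higher and 1 lower in vehicle, and 0 of 5 higher and 4 lower in the combination in response.

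Ranked by ratio, the reported genes highest over the other barcodes in vehicle were Alas2 (log2 ratio 14.23, interval 13.70 to 14.81), Apol11b (10.73), Car2 (10.43), Isg20 (8.17), Tent5c (8.11), Ube2l6 (6.99), Rsad2 (6.03), Bpgm (6.02) and Dhrs11 (5.89). Of these, Apol11b, an apolipoprotein L gene, rested on 29 UMIs in 16 members, and Rsad2, the interferon-induced gene of viperin, on 46 UMIs in 14. Those of the combination in response were Alas2 (14.34), Ube2l6 (10.93), Tent5c (7.95), the guanine deaminase gene Gda (7.89), Bpgm (7.34), Fech (6.79), Isg20 (6.47), Mkrn1 (5.85) and Ube2o (5.30). Gda rested on 11 UMIs in 8 members and Ube2o, a ubiquitin enzyme that removes ribosomal proteins, on 12 in 8. The genes named as lower had 0 to 4 UMIs in members. Cd74, the invariant chain of MHC class II, had 0 UMIs in vehicle members (397.9 CPM in the others) and 1 UMI in the combination in response (55.2 CPM against 967 CPM, log2 ratio -4.13, interval -9.44 to -1.65). Top2a, a topoisomerase of dividing cells, had 1 UMI in the combination in response (55.2 CPM against 775 CPM, log2 ratio -3.81, interval -9.12 to -1.33). The remaining genes of the lower ranking were Eif3a, Emc7, Pkig, Mrps7, Csnk1e, Ctss, Slc39a6, Gmnn and Nbl1 in vehicle, with 1 to 3 UMIs each. For the combination in response they were Cox6b1, Hmgb2, Sfpq, Tubb5, H2az2, Anp32b, Rgcc and Anp32e, with 1 to 4.

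The globin-rich barcodes of vehicle were not alike in Car2 and Gpx1. The variance of the counts over the 41 members of at least 80% globin was 15.2 times the counting variance for Gpx1 and 8.99 times for Car2, against 4.78 for Alas2, 2.69 for Bpgm and 2.21 for Ube2l6. The gene model Gm42418 stood higher, at 35.6, and Ubb (7.19), Pabpc1 (6.41), Eif5 (6.04) and Rsad2 (5.26) lay between Car2 and Alas2. Such spread is therefore not particular to Car2 and Gpx1. Car2 ran from 0 to 23 UMIs and was present in 13 of the 41. All 13 also carried Gpx1, and they were 13 of the 29 members with Gpx1 (44.8%). Those 13 held 382 of the 507 Gpx1 UMIs (75.3%). Their Gpx1 level was 49941 CPM, against 10600 CPM in the 28 without Car2, and Prdx2 stood at 6406 against 1611 CPM. Alas2 was closer, at 33730 and 30018 CPM. The 13 were deeper, with a median of 531 non-globin UMIs against 330.0, and the part of depth in whether Car2 was detected was not tested. In the combination in response 3 of the 4 members with Car2 carried Gpx1, and these 4 held 36 of 72 Gpx1 UMIs, with 16752 against 7923 CPM of Gpx1 and 37227 against 48195 CPM of Alas2. A division by Car2 was chosen after these values were seen, and it is a description without a test. In the anti-PD-1 library 1 member of 93.2% globin had 49 Gpx1 UMIs among 389 non-globin UMIs.

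**Figure D4:**
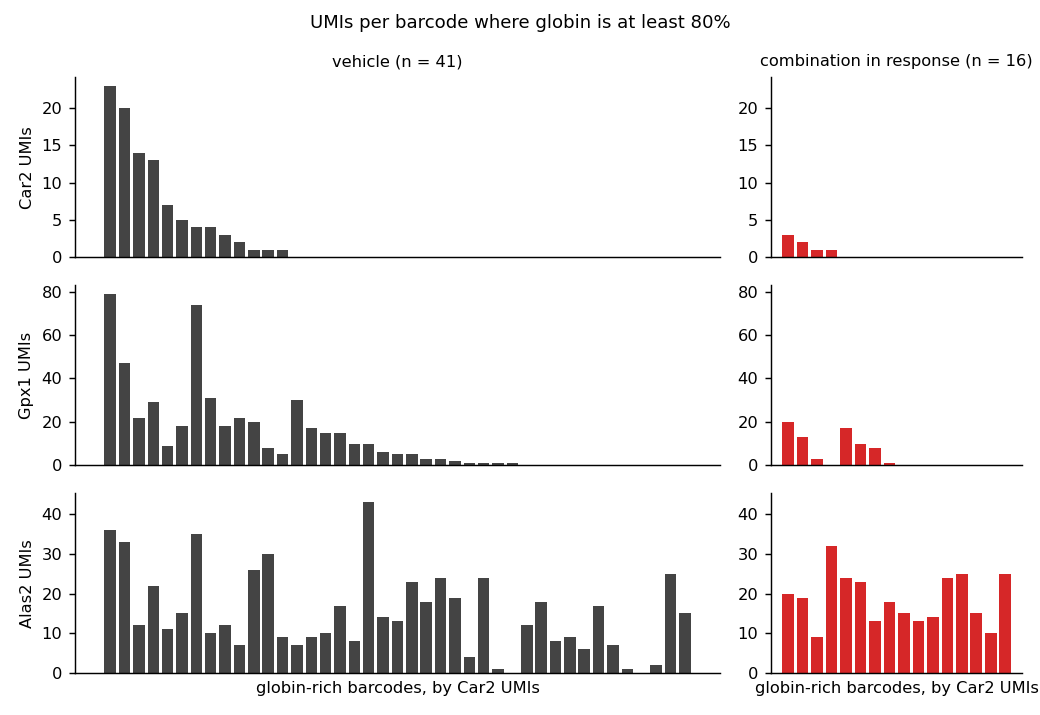
Car2, Gpx1 and Alas2 UMIs (vertical, 1 row of panels per gene) in each member of at least 80% globin, 1 bar per member, with members of vehicle (n = 41) and combination in response (n = 16) each ordered by Car2. In vehicle the 13 members with Car2 hold 382 of the 507 Gpx1 UMIs, while Alas2 is spread over 39 of the 41.

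The members of at least 80% globin in the combination in response were next set against those in vehicle. Of the 27 genes with enough UMIs in both, 1 was at least 2-fold higher in the combination in response (3.7%) and 2 were at least 2-fold lower (7.41%), with a median log2 ratio of 0.14. Of those 27 genes, 17 belonged to the erythroid lists, of which 0 were higher and 2 lower, with a median of 0.23. The 2 lower genes were Gpx1 (log2 ratio -1.28, interval -1.65 to -0.92) and Prdx2 (-1.09, interval -2.16 to -0.16). Between the other barcodes of these libraries the log2 ratio was 0.60 for Gpx1 and -1.39 for Prdx2. Gpx1 was found in 7 of 16 members of the combination in response and 29 of 41 of vehicle. Its variance over members was 6.99 and 15.2 times the counting variance, a spread that the interval leaves out. The higher gene was the nuclear long noncoding RNA Malat1, with 108 UMIs against 38 and a log2 ratio of 3.05 (2.50 to 3.62). Malat1 also differed in the other barcodes, which had 20249 CPM in the combination in response and 1724 CPM in vehicle, and the share of it that came from outside the globin-rich cells was not tested. Epb41 (log2 ratio 0.93, interval 0.36 to 1.49), Tent5c (0.83, 0.18 to 1.47) and Alas2 (0.51, 0.30 to 0.71) were next, and these intervals hold only the counting error of 2 libraries. In the other barcodes the log2 ratio was 0.73 for Epb41, 1.48 for Tent5c and 0.82 for Alas2. Whether any of these differences is particular to the globin-rich barcodes was not tested.

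Per 1000 globin UMIs, both libraries had 2.94 Alas2 UMIs in members of at least 80% globin. Bpgm stood at 0.952 UMIs per 1000 globin UMIs in vehicle and 0.796 in the combination in response, Ubb at 1.496 and 0.550, and Gpx1 at 2.44 and 0.708. Globin counts chose the members and are the denominator here, so these values are a description and no difference is read from them. With all 60 and 23 members, 91 genes could be compared, of which 12 were at least 2-fold higher (13.2%) and 8 lower (8.79%), with a median log2 ratio of 0.32. Scaled by trimmed mean of M values (TMM), the same 91 genes gave 1 higher and 21 lower with a median of -0.30, so no direction of the whole profile is read from either. The highest were Malat1 (4.20), Epb41 (1.40), Tent5c (1.32), the profilin gene Pfn1 (1.23) and Oaz1, which limits polyamine synthesis (1.10). The lowest were the prothymosin gene Ptma (-1.89), Gnas (-1.57), the histone gene H3f3b (-1.28), Prdx2 (-1.22) and the chaperone gene Calr (-1.18). Each of these highest and lowest genes differed in the same direction in the other barcodes. There the combination in response and vehicle had 588 and 2676 CPM of Gnas, and 1824 and 3723 CPM of H3f3b. For Calr these were 557 and 1394 CPM, and for Pfn1 2514 and 1099 CPM. At 80% globin or more, Gnas had 13 of 6693 non-globin UMIs in the combination in response and 42 of 19442 in vehicle. Among the members of at least 80% globin, Ptma had too few UMIs to be among the 27 genes compared there (14 in the combination in response), and its log2 ratio had the opposite sign (1.10). Under TMM the direction of the 5 highest was kept, with Malat1 at 3.58 and Oaz1 at 0.47.

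The globin genes themselves are described without a test. Alpha chains (Hba-a1 and Hba-a2, chr11:32283672-32284486 and chr11:32296492-32297310) made up 55.2% of the globin UMIs of vehicle members and 53.5% of those of the combination in response. The share was 57.8% in the combination, 56.7% for the ERBB2i member and 54.7% over the anti-PD-1 members. Per member the alpha share had medians of 55.5% in vehicle (36.5 to 81.2%) and 53.4% in the combination in response (49.0 to 62.2%). Hbb-bt, the minor beta gene (chr7:103812524-103813923), made up 23.1% of beta UMIs in the combination, 18.8% under anti-PD-1, 15.3% in vehicle, 14.6% in the combination in response and 11.3% for ERBB2i, the rest being Hbb-bs (chr7:103826523-103827928). Hba-a1 took 61.2 to 64.7% of alpha UMIs in the 5 libraries. Both splits depend on how reads of similar copies were assigned, since 79.5% of the 50-base stretches of Hba-a1 and Hba-a2 transcripts and 62.0% of those of Hbb-bs and Hbb-bt were shared. Over the last 250 bases, the shares were 63.7% and 19.9%. The members held 97.3% of all globin UMIs in vehicle and 87.8 to 96.1% elsewhere. The other barcodes carried a globin share of 0.0110% of UMIs in vehicle and 0.0227% in the combination in response, with at least 1 globin UMI in 33.6 and 24.7% of them, against 0.487 to 4.71% in the other 3 libraries. In those barcodes Alas2 stood at 4.56 UMIs per 1000 globin UMIs in vehicle (3.08 to 6.51) and 3.90 in the combination in response (2.35 to 6.09), beside 2.81 (2.60 to 3.03) and 2.75 (2.47 to 3.06) in the members.

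Transcripts of other cell types were also present in the members. Over all members, the neuroendocrine list of vehicle and the T cell list of the combination in response stood near the level of the other barcodes. Other lists did not. In vehicle, neuroendocrine tumor genes had 430 UMIs in 45 of 60 members (6323 CPM, with 7609 CPM in the other barcodes), of which 143 lay in the deepest member, and 74 UMIs (3806 CPM) in those of at least 80% globin. Within the combination in response the same 18 genes had 0 UMIs in members and 15.2 CPM in the others. T cell genes showed the opposite, with 347 UMIs in 22 of 23 members of the combination in response (19151 CPM, against 19168 CPM in its other barcodes). Vehicle had 11 T cell UMIs in 4 of 60 members (162 CPM, against 50.6 CPM in the others). At 80% globin or more, T cell genes of the combination in response stood at 75 UMIs (11206 CPM). In anti-PD-1, 111 T cell UMIs lay in 1 member of 55.8% globin, in combination 244 macrophage UMIs lay in 1 member of 15.7% globin, and 23 endothelial UMIs in another of 53.6%. Over all combination members, macrophage genes stood at 23370 CPM, against 2353 CPM in the others. Endothelial genes there stood at 2040 against 45.9 CPM. In all, 21 members had at least 10 UMIs of 1 such list, and 19 of them were under 80% globin. Macrophage genes in vehicle members summed to 21 UMIs (309 CPM, with 1736 CPM in the others) and neutrophil genes to 0. Genes of macrophages that take up red cells had 1 UMI in vehicle members and 0 in those of the combination in response. Platelet genes had 3 and 1 UMIs. The part of these transcripts in the levels above was not tested.

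**Figure D5:**
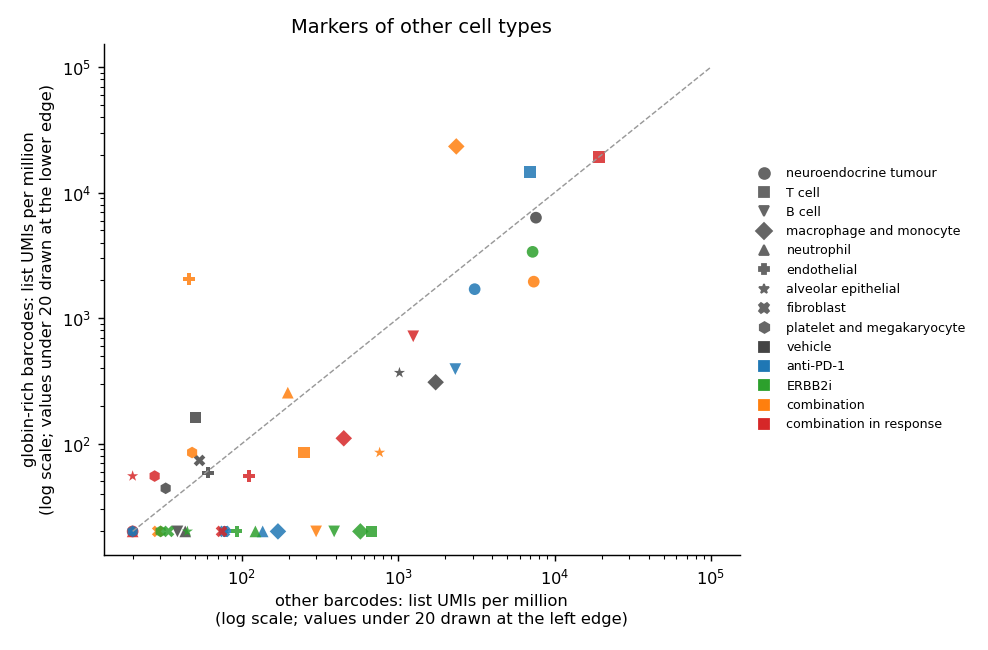
Summed level of marker lists of other cell types (UMIs per 1000000 non-globin UMIs, log axes) in members, vertical, against the other barcodes of the same library, horizontal, with symbols for lists, colors for libraries, values under 20 drawn at the edges and a dashed line of equal levels. The neuroendocrine list of vehicle (6323 against 7609) and the T cell list of the combination in response (19151 against 19168) lie near that line.

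The gene model Gm42418, which overlaps a ribosomal RNA locus and so can collect ribosomal reads, was the most abundant non-globin gene and took 9.49% of the non-globin UMIs in vehicle members of at least 80% globin and 6.36% in those of the combination in response. Its count was 2 to 152 UMIs per member with a median of 38 in vehicle, and 5 to 75 with a median of 21.5 in the combination in response. Other genes keep their ratios to each other when it is set aside.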

How the data were processed

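Tumor tissue was dissociated and run on SCOPE-chip microfluidics (Singleron). The authors made the gene by barcode tables with CeleScope according to their methods, while the submitters' processing notes list mm10, Cell Ranger and Scanpy, and gave no versions. The deposited values are raw UMI counts per gene and barcode, with 21624506 to 88497833 UMIs per library, and were not normalized. Groups came from the treatment label. Counts were read with Python 3.11.15, and doublets were marked with Scrublet in Scanpy 1.11.5, and were left in.

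Members and gene lists were chosen with earlier results of these data known. Levels are sums over members per 1000000 non-globin UMIs, with exact Poisson intervals. Shares have exact Clopper-Pearson intervals and log2 ratios an exact conditional binomial interval, all at 95%. A ratio of members to other barcodes needed 20 UMIs in sum and 10 in members, observed or expected, and a ratio of libraries needed 50 UMIs in the larger and 10 in the smaller, with at least 20 members per library. A 2-fold limit was used. The 10 genes with the largest ratio each way (5 between libraries) were named, beside the lists, except for a few genes that are not reported here but stay in the sums and counts. No replicate exists, so no test was run. PCR duplicates were collapsed by UMI before deposit. The steps were tested on simulated data. Alternatives were other globin cutoffs, the study's filters, doublet removal, 3 other scalings, means over barcodes, TMM factors (edgeR 4.0.16), and lower minimum counts.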

Additional observations from a re-analysis of the deposited data

Results flagged for a closer look

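Barcodes with at most 150 detected genes were outside every comparison above, and 36 of the 42 such barcodes had at least 10% globin UMIs. They comprised 12 of 12 in vehicle, 7 of 7 in anti-PD-1, 1 of 1 in combination and 16 of 22 in the combination in response. They had 500 to 5836 UMIs (median 1460), 63 to 149 genes and 67.5 to 97.0% globin (median 90.3%). Alas2 had 99 UMIs in 27 of the 36, or 19164 CPM (15575 to 23331), above the 0.0723 to 0.886 CPM of the barcodes that are not globin-rich. By library, it stood at 13002 CPM in vehicle, 15385 CPM in anti-PD-1, 20833 CPM in combination and 26404 CPM in the combination in response.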

How the results depend on the processing

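Of the values that answer a comparison, 54 alternatives stayed within the stated limits and 37 moved, and of those for single genes 242 stayed, 65 moved and 4 reversed. With the study's filters the share of globin-rich barcodes was 0% in vehicle, anti-PD-1, ERBB2i and combination and 0.0229% in the combination in response, too few members for levels or ratios, which were not run. With no minimum of genes, chosen after seeing the data like the 80% limit, the removal of the deepest members and the scale per globin UMI, the share was 0.0897% in anti-PD-1 and 0.385% in the combination in response.

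Alas2 in vehicle was 8871 CPM at a 5% globin cutoff, 13122 at 20%, 31478 at 80%, 23521 without the 5 deepest members, 2177 per 1000000 of all UMIs and 22256 as a mean over members. In the combination in response these were 15661, 23825, 44674, 39131, 2395 and 35967. Genes at least 2-fold higher than in other barcodes numbered 32 per all UMIs and 1645 with a minimum of 1 UMI in vehicle (134 as reported), and 51 at 80% globin, 20 per all UMIs and 1606 with 1 UMI in the combination in response (79 as reported). Genes at least 2-fold lower numbered 1673 per all UMIs, 564 as a mean over barcodes and 1079 with 1 UMI in vehicle (110 as reported), and 25 at 80% globin, 30 without the deepest members, 299 per all UMIs, 104 with TMM and 508 with 1 UMI in the combination in response (56 as reported).

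Between the combination in response and vehicle, genes higher numbered 1 at 80% globin, 3 without the deepest members, 1 per all UMIs, 1 with TMM and 1429 with 1 UMI (12 as reported). Genes lower numbered 4 at a 20% cutoff, 2 at 80%, 2 without the deepest members, 25 per all UMIs, 21 with TMM and 513 with 1 UMI (8 as reported). The median log2 ratio of these genes was 0.32, and -0.47 per all UMIs. Unthinned, Alas2 was detected in 81.7% and Bpgm in 63.3% of vehicle members. Reversed were Ctss in vehicle as a mean over barcodes (0.11 against -2.46), Ptma at 80% globin (1.10) and without the deepest members (0.17, against -1.89), and Alas2 per globin UMI (-0.030 against 0.93). Fewer members or another denominator define these alternatives, and beyond that the cause was not tested. No paired analysis was possible because each group has 1 library. Over the summed non-globin UMIs of all members, 68010 in vehicle and 18119 in the combination in response, 3 counts correspond to 44.1 and 166 CPM. For a single member, with a median of 410 or 419 such UMIs, the limit is far higher.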
